A study of Stipitochalara longipes with 7 samples.

Results

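The gene models described here are 198 of the 19765 gene models (1.0%) of the ascomycete fungus Stipitochalara longipes, chosen by having their highest read levels in every library of needles harvested after 10 months. The level used for the choice is the total gene reads of a model divided by the size factor of its library, called scaled reads below. The size factor is the median ratio over the 8859 models with reads in all 7 libraries. A model was a member when its lowest scaled reads among the 3 libraries of 10 months were at least 100 and at least 2 times its highest scaled reads among the 4 libraries of 2 and 5 months. The difference between 10 months and the earlier harvests is therefore the rule itself and is given as a description, without a test. The change from 2 to 5 months took no part in the rule as a contrast and was tested. The rule does bound the values of both earlier harvests from above.

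The fungus, which some labels name Chalara longipesis, grew alone on 11 g of dry needles of Scots pine (Pinus sylvestris) over 85 g of sand. All microcosms shared gamma sterilisation, an inoculum of needles that the fungus had colonised for 2 months, 20 ml of 100 mM ammonium chloride and a temperature of 20 °C. Per the labels, the litter held 0.42% nitrogen, 50.6% carbon and about 25% lignin. Age is the only difference between the groups that the labels name. The first and second harvests have 2 libraries each, and the last harvest has 3. The labels call these biological replicates, while each harvest took 4 microcosms. A batch of extraction, library preparation or sequencing that went with a harvest could not be told apart from age. No group lacks the fungus or the ammonium chloride, and the age of the mycelium cannot be told apart from changes of the litter over the same time.

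Fungi that decay litter release enzymes that open plant cell walls, and take up the sugars, phenolics and nitrogen set free. As litter ages, soluble compounds are generally used first and the more resistant polymers later, and part of the mycelium dies and is recycled. RNA breaks down quickly outside living cells, so a transcript profile reports mainly on active hyphae. The files give the models only as Joint Genome Institute protein identifiers and do not pair them with names or functions, so no role is assigned to any member.

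Total gene reads per library ran from 20009777 to 52554481. Up to 93.3% of them, in 2-month replicate 2, and at least 29.98%, in 5-month replicate 2, fell in 8 very abundant models, of which 0 are members. Reads outside these 8 models set the precision for the members. They ran from 2938002 in 2-month replicate 2 to 16923473 in 2-month replicate 1. Where no read was counted, up to 3 reads are still allowed, or 10.2 scaled reads in 2-month replicate 2 and between 1.60 and 3.83 in the other 6 libraries. These limits cover counting error only, because no molecular identifiers are described and several reads can stem from one molecule. In bulk material of this kind, fewer active cells and less RNA per cell cannot be told apart.

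As a group the members moved from a small to a sizeable part of the transcriptome outside the 8 abundant models. They held 2.81% of these reads in 2-month replicate 1, 2.23% in 2-month replicate 2, 2.80% in 5-month replicate 1 and 3.13% in 5-month replicate 2. In the 10-month libraries, in the order of their replicate numbers, they held 10.2%, 10.3% and 10.8%. The 4 earlier libraries lay within about 1 percentage point of each other, and so did the 3 later ones. As a share of all gene reads, the members held 1.48%, 0.149%, 0.367% and 2.19% in the earlier libraries and 6.72%, 4.99% and 3.12% in the later ones, while the 8 abundant models took between 29.98% and 93.3%.

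The median member had 462 scaled reads in 2-month replicate 1 and 321 in replicate 2, then 382 in 5-month replicate 1 and 454 in replicate 2. After 10 months the medians were 2148, 2083 and 2464, in the order of the replicates. The 3 medians of 10 months were close to each other and lay far above the other 4. For single members, the 10-month mean was between 2.51 and 34.9 times the mean of the 4 earlier libraries, with a median of 4.99. It was at least 4 times that mean in 139 members and at least 8 times in 38. The ratio used by the rule, lowest late over highest early value, is stricter and ran from 2.02 to 11.9 with a median of 2.50. It reached 3 in 66 members, 5 in 23 and 10 in 2.

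**Figure D1:**
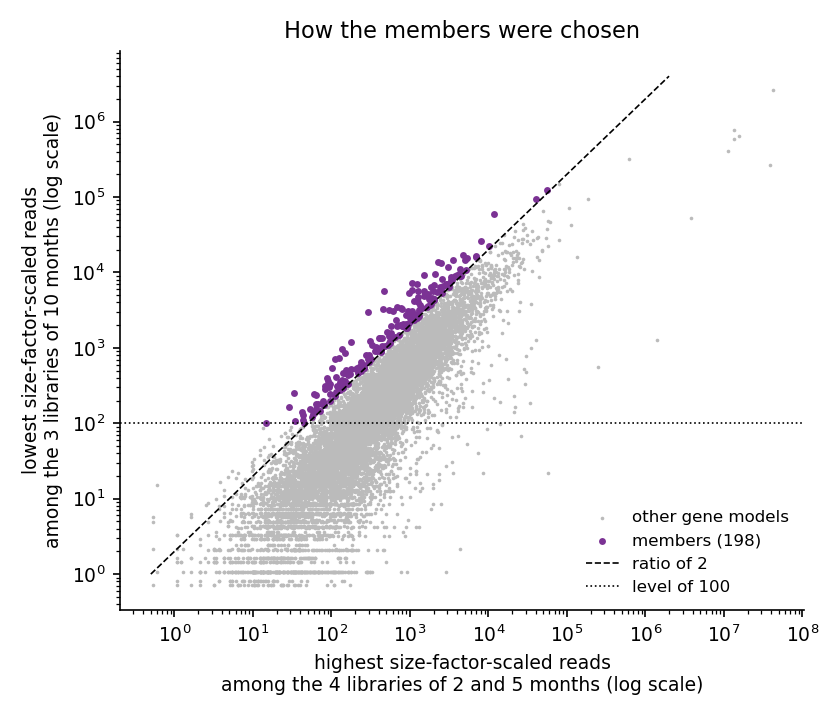
Each point is 1 gene model, with its highest scaled reads among the 4 libraries of 2 and 5 months on the x axis and its lowest scaled reads among the 3 libraries of 10 months on the y axis, both on log scales; models at 0 on either axis are not drawn. The 198 members (purple) lie above the dashed line of ratio 2 and the dotted line of level 100, and most of them lie close to the dashed line.

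**Figure D2:**
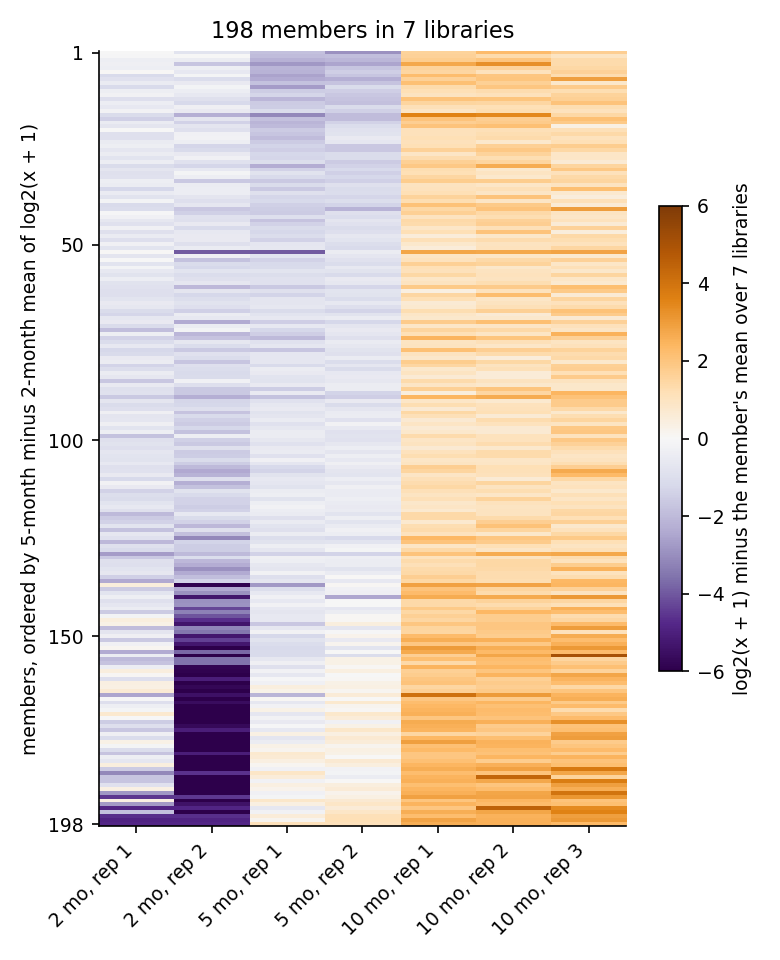
Rows are the 198 members, ordered by the 5-month minus the 2-month mean, columns are the 7 libraries, and colour is log2(scaled reads + 1) minus the member's own mean, drawn between −6 and 6, with 27 members reaching beyond that range in some library. The 3 columns of 10 months are orange, as the rule requires, and the dark block in 2-month replicate 2 holds the members with 0 or few reads there.

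Membership depended on how the libraries were put on one scale. With reads outside the 8 abundant models as the scale, 198 of the 198 members still had every 10-month library above every earlier one, against 4.92% of the 14753 models kept for testing. Of these members, 85 kept a ratio of at least 2. The rule's ratio of 2 makes the order likely to survive a modest change of scale, so the count of 198 describes the choice. With library totals as the scale, 103 members had every 10-month library above every earlier one, against 1.82% of the tested models. On that scale 26 members kept a ratio of at least 2. With the size factors of the rule, every 10-month library was above every earlier one in 10.0% of all tested models. The other 95 members overlapped under library totals. In 93 of these 95 the highest earlier library was 5-month replicate 2, the library with the lowest share of the 8 abundant models (29.98%). In 91 of the 95 the lowest late library was 10-month replicate 3, whose share of these models was the highest of its harvest (71.2%). The same counts were not computed over all tested models, so neither is read as a trait of the members. Which of the scales is closer to the amount of RNA per hypha was not tested.

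The margin of the rule was thin for many members. Just inside the ratio of 2 were 133820, with a lowest late value of 1839 scaled reads against a highest early value of 912 (ratio 2.02), and 324978, with 3803 against 1882 (ratio 2.02). Just outside were 335524, with 2443 against 1229 (ratio 1.99), and 346004, with 1442 against 727 (ratio 1.98). Just inside the level of 100 were 312604 at 100.6 and 538831 at 101.4 scaled reads, and just outside, with a sufficient ratio, were 414713 at 88.8 and 436260 at 88.4.

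At 10 months the members covered a wide span of levels. The lowest late value lay between 100 and 300 scaled reads in 31 members, between 300 and 1000 in 47, between 1000 and 3000 in 45 and between 3000 and 10000 in 59. It was above 10000 in 16 members. Per kilobase of gene model, the median member had 284 scaled reads at 2 months, 345 at 5 months and 1577 at 10 months, beside 81.8, 94.4 and 78.8 for all 14753 tested models. The rule's own level of 100 favours abundant models, and the 6772 tested models that reach it had medians per kilobase of 331, 326 and 370. Before 10 months the members thus had levels per kilobase near those of that set, and at 10 months they lay above it, as the rule asks. Ranked by scaled reads per kilobase, 12 members were among the 100 highest models at 10 months, 65 among the 500 highest and 98 among the 1000 highest. Only 2, 18 and 38 members held such ranks at 5 months, and 2, 11 and 29 at 2 months.

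The pair of members already among the 100 highest at 2 and 5 months are also the pair with the highest RPKM at 10 months. Model 426805, of 1047 bp, had 56168 and 44792 scaled reads in the 2-month libraries, 30288 and 24347 in the 5-month ones, and 123336, 152294 and 136173 after 10 months, each time in the order of the replicates, as in all such series of values below. Both 5-month libraries lay below both 2-month libraries, so its course dipped before the late high values. The dip had a log2 fold change of −1.06 (SE 0.57) and did not pass the edgeR test (Benjamini-Hochberg adjusted p = 0.389). Its deposited RPKM at 10 months was 5373 ± 1999 (SD, n = 3), and it ranked 11 among all models per kilobase.

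Model 324385, of 1818 bp, had 27974 and 27272 scaled reads in the 2-month libraries, 40893 and 25649 in the 5-month ones, and 94356, 124917 and 179980 after 10 months. The 2-month values fell between the 5-month values, and the late libraries differed from each other by a factor of 1.91. Its RPKM at 10 months was 2766 ± 350.1 (SD, n = 3), and it ranked 16 per kilobase. Because RPKM is relative to each library's own total, the spread of RPKM and the spread of scaled reads of one model need not match.

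The pair with the largest ratios was not among the most abundant. Model 49331, of 1130 bp, had 438 and 275 scaled reads in the 2-month libraries, 381 and 474 in the 5-month ones, and 7016, 8187 and 5662 after 10 months. Its 4 earlier libraries overlapped between harvests, and every late library was at least 11.9 times the highest of them. Model 550216, of 2078 bp, had 112 and 184 scaled reads in the 2-month libraries, 281 and 288 in the 5-month ones, and 2952, 4534 and 4872 after 10 months. Here both 5-month libraries lay above both 2-month libraries and the ratio was 10.2. The log2 fold change from 2 to 5 months was 0.07 (SE 0.39) for 49331 and 0.81 (SE 0.39) for 550216, and neither passed the edgeR test with Benjamini-Hochberg adjustment (adjusted p = 0.941 and 0.345).

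**Figure D3:**
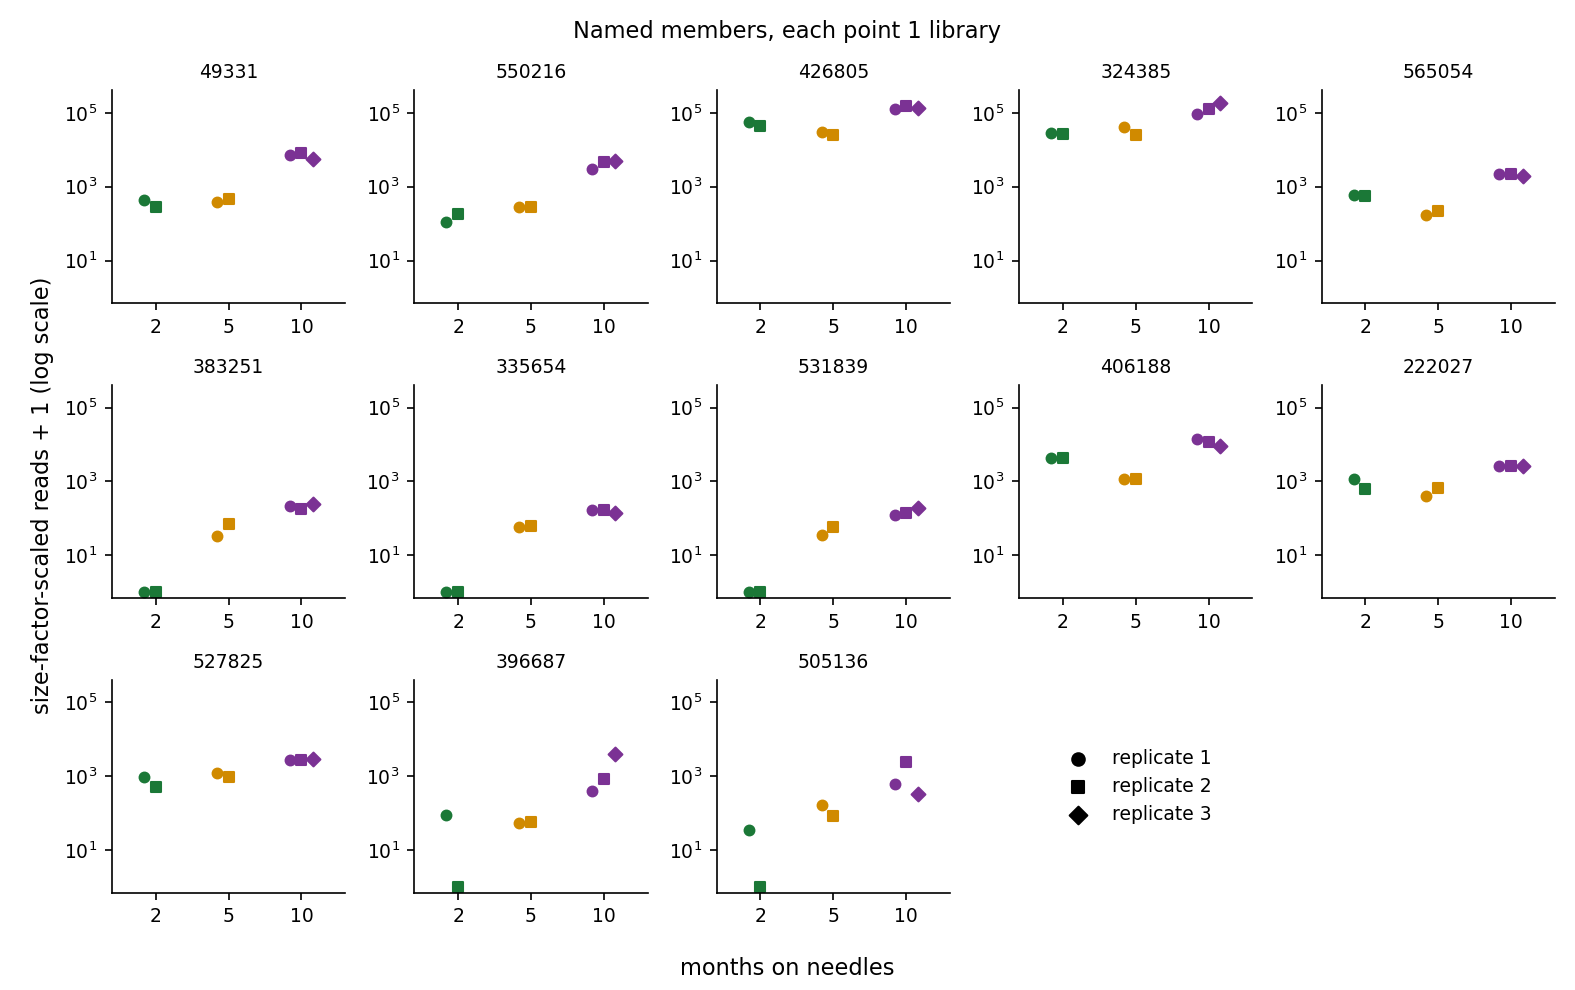
Each panel is 1 named member, with months on needles on the x axis and scaled reads + 1 on a log y axis; each point is 1 library and its shape gives the replicate. The 3 libraries of 10 months are the highest in every panel, while the order of the 2-month and 5-month libraries differs between panels.

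The comparison between 2 and 5 months was not the contrast of the rule, and it asks whether the members had begun to rise by then. The rule still bounds it, since models whose 5-month values came within 2-fold of the lowest 10-month value could not be members. The number of rises is thus partly set by the choice. Few members changed detectably: 3 rose and 2 fell by edgeR's quasi-likelihood test at a Benjamini-Hochberg adjusted p under 0.05. The background over all 14753 tested models was 0.624% higher and 0.746% lower, and the members' counts are 1.52% and 1.01% of 198, shares that rest on 3 and 2 models only. At an unadjusted p under 0.05 there were 38 members (19.2%), against 16.3% of all tested models and 21.7% of those at the rule's level of 100 at 10 months. DESeq2 called 13 members higher and 6 lower, against 6.24% and 2.79% of the models to which it gave an adjusted p.

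The median log2 fold change of the members from 2 to 5 months was 0.12, beside 0.10 over all tested models and −0.23 over the 6772 that reach the rule's level at 10 months. Between the 10th and the 90th percentile the members ran from −0.94 to 1.88 and all tested models from −1.45 to 2.95. Within 1 log2 unit of 0 lay 138 members (69.7%), against 52.6% of all tested models and 70.2% of those at the rule's level. Other scalings moved the median of all tested models to 0.27 (median-of-ratios factors) and 0.38 (without the 8 abundant models), and the members' median stayed within 0.03 of it under both. Leaving out 2-month replicate 2 turned the members' median to −0.14, and leaving out 2-month replicate 1 raised it to 0.56, against 0.15 and 1.08 for all tested models.

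**Figure D4:**
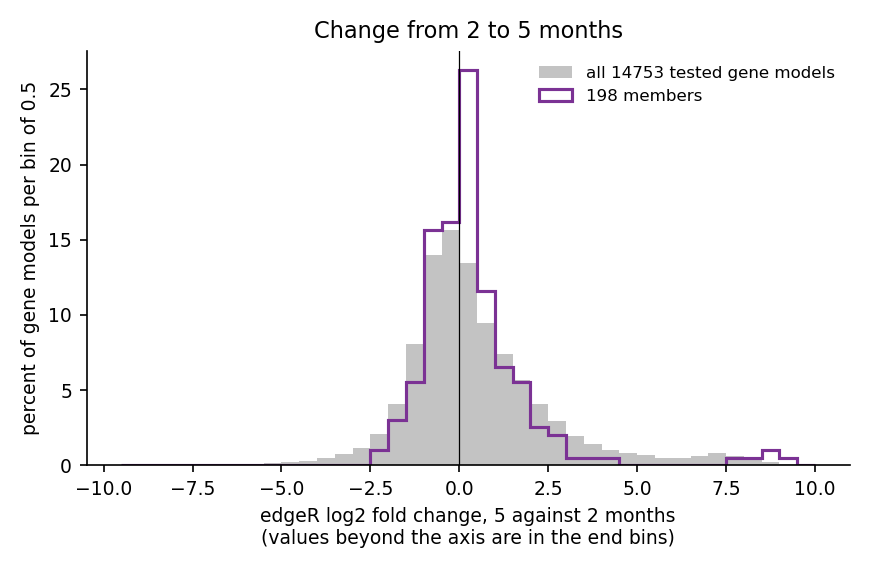
Histogram of the edgeR log2 fold change at 5 against 2 months (x axis, bins of 0.5), as the percent of the 198 members (purple outline) and of all 14753 tested gene models (grey). Most members lie within 1 log2 unit of 0, and the separate bars at the far right are members with 0 reads in both 2-month libraries.

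The direction between 2 and 5 months was mixed. The 5-month mean of scaled reads was above the 2-month mean in 132 members (66.7%, against 58.45% of all tested models and 47.5% of those at the rule's level) and below it in 66. With the TMM scaling of the edgeR fit, 116 members (58.6%) had a log2 fold change above 0, against 52.8% and 39.7%. By scaled reads, the 5-month and 2-month means lay within 1.5-fold of each other in 87 members. That share was not computed over all tested models, so nothing is read from it. Both 5-month libraries lay above both 2-month libraries in 70 members, or 35.4%, against 33.6% of all tested models and 25.0% of those at the rule's level. Both lay below in 35 members, or 17.7%, against 15.8% and 24.2%. In the other 93 members the libraries of the 2 harvests overlapped. The highest of the 4 earlier libraries was 5-month replicate 2 in 78 members (39.4%), 2-month replicate 1 in 58 (29.3%), 5-month replicate 1 in 34 (17.2%) and 2-month replicate 2 in 28 (14.1%). Over all tested models these shares were 27.7%, 25.9%, 23.0% and 23.4%, and over those at the rule's level 18.9%, 34.1%, 20.1% and 26.9%. The rule bounds the earlier libraries of a member, so these shares are a description.

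The 3 members that rose from 2 to 5 months had no read in either 2-month library and low levels thereafter. Model 335654, of 717 bp, had 0 and 0 scaled reads in the 2-month libraries, 58.8 and 59.8 in the 5-month ones, and 169, 167 and 139 after 10 months. Counting error alone allows 3 reads for a count of 0 in each 2-month library, a mean of 6.01 scaled reads. Folds against this limit use means and leave out the spread of the later libraries. The mean of 335654 was 9.87 times the limit at 5 months and 26.3 times at 10 months. For 5 against 2 months, 335654 had an edgeR Benjamini-Hochberg adjusted p = 0.0374. Its replicates agreed closely within both later harvests. Model 383251, of 880 bp, had 0 and 0 in the 2-month libraries, 33.2 and 67.8 in the 5-month ones, and 212, 178 and 252 after 10 months. Its mean was 8.41 times the limit at 5 months (edgeR, Benjamini-Hochberg adjusted p = 0.0374) and 35.6 times at 10 months. Model 531839, of 744 bp, had 0 and 0 in the 2-month libraries, 35.8 and 56.1 in the 5-month ones, and 119, 142 and 192 after 10 months. Its mean was 7.65 times the limit at 5 months (edgeR, Benjamini-Hochberg adjusted p = 0.0484) and 25.2 times at 10 months. In all 3 the libraries were ordered 2, 5 and 10 months with no overlap.

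The other 2 members without reads at 2 months missed the threshold. They were chosen for mention after their values were seen. Model 518135 had 20.4 and 28.8 scaled reads at 5 months and 171, 165 and 199 at 10 months (edgeR, Benjamini-Hochberg adjusted p = 0.0645 for 5 against 2 months). Model 564646 had 17.9 and 43.3 at 5 months and 111, 645 and 305 at 10 months (edgeR, Benjamini-Hochberg adjusted p = 0.0849). These 5 models are 2.53% of the members, against 4.35% of all tested models and 0.0886% of those at the rule's level.

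The 2 members that fell from 2 to 5 months dipped and then rose past their starting level. Model 406188, of 1299 bp, had 4199 and 4371 scaled reads in the 2-month libraries, 1167 and 1191 in the 5-month ones, and 13909, 11457 and 8841 after 10 months. The replicates of 2 and of 5 months were nearly equal, and the log2 fold change was −2.03 (SE 0.39) by edgeR (Benjamini-Hochberg adjusted p = 0.0408). Model 565054, of 2303 bp, had 580.1 and 568 scaled reads in the 2-month libraries, 169 and 225 in the 5-month ones, and 2159, 2171 and 1974 after 10 months. Its log2 fold change was −1.71 (SE 0.34) by edgeR (Benjamini-Hochberg adjusted p = 0.0437). All libraries of each harvest kept apart from those of the others in both models.

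All 5 calls were kept when either 2-month library was left out, and most were lost without a library of another harvest. Without either 5-month library, or without any single 10-month library, 0 members rose by edgeR and at most 1 fell, with between 25 and 38 members at an unadjusted p under 0.05. Without 2-month replicate 1 the counts were 62 higher and 8 lower, against 17.8% and 7.12% of all models tested in that fit, whose median log2 fold change also moved up. Without 2-month replicate 2 they were 8 and 6, against 2.76% and 3.28%.

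For the comparisons that the rule did use, counts of calls only describe the rule. From 2 to 10 months, edgeR called 107 members higher, against 1.64% of all tested models, and the members' median log2 fold change was 2.48 beside 0.20 for all tested models. From 5 to 10 months it called 92 members higher, against 1.63%, with a median of 2.29 beside −0.06. DESeq2 called 186 members higher from 2 to 10 months, against 8.19% of its models, and 159 from 5 to 10 months, against 5.76%. By the rule, the members without a call also had every 10-month library above every earlier one.

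The libraries of 2 months differed most in how many members they detected. All 198 members had reads in 5-month replicate 2 and in the 3 libraries of 10 months, and 1, model 312604, had none in 5-month replicate 1. There were 5 members without reads in 2-month replicate 1 and 47 in 2-month replicate 2. The 47 are 23.7% of the members, against 35.1% of all tested models and 7.52% of those at the rule's level. They were low at 10 months too, with a median lowest late value of 281 scaled reads against 2952 for the other members.

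Some of these zeros stood against sizeable counts in the other library of 2 months. For 149 members, the level in 2-month replicate 1 implied at least 30 reads in 2-month replicate 2, and 10 of them (6.71%) had none, against 8.07% of such models among all tested and 4.86% among those at the rule's level. The most pronounced was 502976, with 717 reads in 2-month replicate 1, which implied 128 reads in replicate 2, where 0 were counted. Next, all chosen for mention after their values were seen, came 344242 with 666 reads (119 implied) and 339694 with 661 reads (118 implied). The members' coefficients of variation had medians of 41.3% at 2 months, 16.1% at 5 months and 20.3% at 10 months. Over the 6772 models at the rule's level these medians were 40.8%, 16.3% and 20.2%, nearly the same.

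In the median, the 3 libraries of 10 months agreed on the members about as well as on the models at the rule's level. A range of at least 2 times was more frequent among the members. The models at the rule's level include the members and were lower at 10 months, with a median of 370 scaled reads per kilobase against 1577. The highest of the 3 values was 1.49 times the lowest in the median member, against 1.48 times for models at the rule's level and 1.73 for all tested models. It was at least 2 times the lowest in 46 members (23.2%), against 16.9% of models at the rule's level and 38.5% of all tested models, and at least 3 times in 9 members (4.55%), against 4.05% and 19.6%. Across members, Spearman's rho of scaled reads was 0.981 between 10-month replicates 1 and 2, 0.939 between 1 and 3, and 0.941 between 2 and 3. It was 0.977 between the 5-month libraries and 0.918 between the 2-month libraries. These are correlations across gene models within libraries, which are not independent replicates.

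Replicate 3 of 10 months stood somewhat apart, for the members and for the models at the rule's level alike. It gave the highest of the 3 values in 91 members (46.0%), against 40.8% of models at the rule's level, while replicate 1 did in 54 and replicate 2 in 53. It also gave the lowest value in 72 members (36.4%), against 37.1% of models at the rule's level. Of the 46 members with a range of at least 2-fold, replicate 3 was the highest in 26 and the lowest in 19, a split not computed for other models. This library also had the highest share of the 8 abundant models at 10 months (71.2%, against 34.1% and 51.6%) and the fewest detected models (13405, against 16075 and 15846). The part of these properties in the members' values was not tested.

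**Figure D5:**
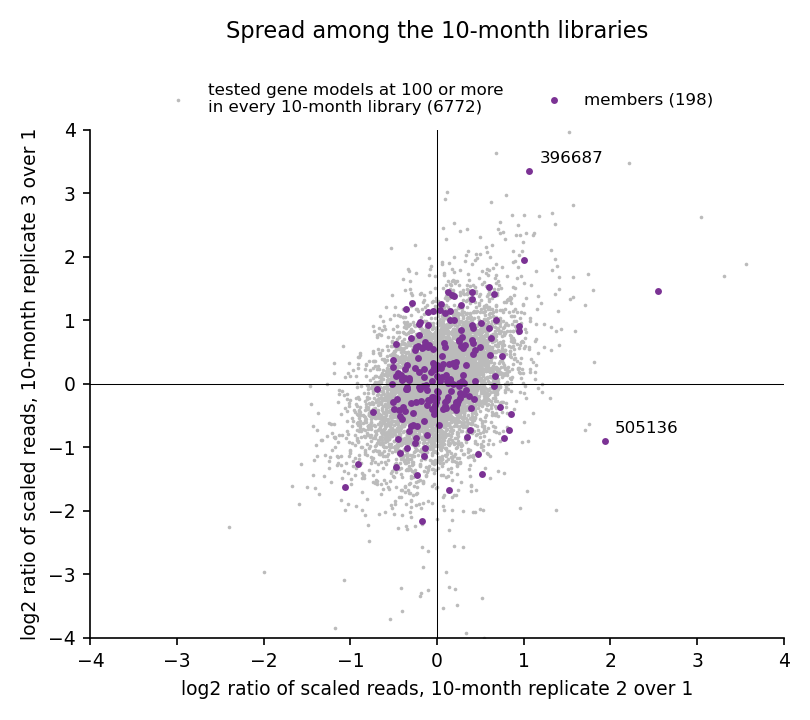
Each point is 1 tested gene model with at least 100 scaled reads in every 10-month library (6772, grey) or 1 of the 198 members (purple), with the log2 ratio of 10-month replicate 2 over 1 on the x axis and of replicate 3 over 1 on the y axis; 11 grey models lie outside the axes. The members spread more along the y axis than along the x axis, like the grey models, and 396687 and 505136 are far from the centre.

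The members that varied least among the late libraries were moderate in level. Model 222027, of 1163 bp, had 2558, 2618 and 2627 scaled reads in 10-month replicates 1, 2 and 3, a range of 1.03 times. Its earlier values were 1177 and 629 in the 2-month libraries, then 409 and 660.3 in the 5-month ones, so the earlier libraries were far less alike than the late ones. Model 527825, of 1195 bp, had 2708, 2755 and 2889 at 10 months (1.07 times), after 947 and 496 in the 2-month libraries, then 1233 and 970.1 in the 5-month ones. In this model the 2-month and 5-month libraries did not overlap, with 5 months higher, and the difference did not pass the edgeR test (Benjamini-Hochberg adjusted p = 0.617).

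The members that varied most were each high in a different late library. Model 396687, of 1566 bp, had 393, 821 and 4000 scaled reads at 10 months, after 88.6 and 0 in the 2-month libraries, then 53.7 and 56.6 in the 5-month ones. Its highest late value was 10.2 times its lowest, and came from replicate 3. Model 505136, of 759 bp, had 619, 2368 and 332 at 10 months, after 34.0 and 0 in the 2-month libraries, then 162 and 81.7 in the 5-month ones. Its range was 7.13 times, with replicate 2 highest and replicate 3 lowest.

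Other members with wide late ranges also differed in which library was high. The abundant model 437829 had 13965, 20056 and 5247 scaled reads in 10-month replicates 1, 2 and 3. Model 426294 had 14217, 12594 and 3171. In both, replicate 3 was the low one, and both stayed above all 4 earlier libraries, whose highest values were 1684 and 546. Model 336072 went the other way, with 2586, 5184 and 10052. These 3 were picked after their values were seen, from the 9 members with a range of at least 3 times.

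The members were somewhat shorter in the median than the models they are set beside, and mostly free of shared reads. Lengths implied by the deposited RPKM and counts lay between 189 and 4455 bp (median 1286 bp), against 1424 bp for all tested models and 1546 bp for those at the rule's level. The shortest were 312604 (189 bp) and 296350 (429 bp), and the longest were 498361 (4455 bp) and 553711 (3704 bp). The short model 312604 had 14.6 and 0 scaled reads in the 2-month libraries, 0 and 10.2 in the 5-month ones, and 105, 101 and 108 after 10 months. Its late values were nearly equal, and its earlier ones rested on few reads.

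All reads counted for a model were unique to it in 175 members (88.4%), against 86.6% of all tested models and 82.0% of those at the rule's level. The unique share was below 99% in 4 members (2.02%), against 3.79% and 3.12%. The lowest shares were 84.9% in 372850 and 93.4% in 434240, followed by 98.4% in 527825 and 98.9% in 296350. Reads of these 4 may be shared with similar models, so their levels are less certain than those of the others. Model 372850 had 178 and 224 scaled reads in the 2-month libraries, 124 and 181 in the 5-month ones, and 836, 1088 and 506 after 10 months. With unique reads alone in place of total reads, all 198 members met the rule, along with 2 further models.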

How the data were processed

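The authors deposited 1 table per library, whose columns, per the file headers, are the counts "Unique gene reads" and "Total gene reads" and the RPKM of each JGI protein identifier. Not given in the sources used here are the aligner, counter, strand handling, genome build and annotation. Overlapping or antisense models can therefore not be told apart. The RPKM deposited by the authors is relative to each library's own total and was used for lengths, for ranking at 10 months and as printed.

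Total gene reads were tested in edgeR 4.0.16 (R 4.3.3) with filterByExpr, which left 14753 models, TMM scaling and 1 quasi-likelihood fit of all 7 libraries with the 3 harvests as groups. Calls are at a Benjamini-Hochberg adjusted p under 0.05 over all tested models. All 198 members passed the filter, which the rule's level at 10 months made likely. Standard errors were derived from the log2 fold change and its F value. On simulated data for 5 against 2 months (13344 models tested, 200 of the more abundant changed 8-fold), the test called 88.0% of the changed models and 9 others. Smaller changes, and changes in less abundant models, were not simulated, so the 88.0% does not carry over to them. DESeq2 1.42.0 was an alternative, and scaled reads were computed in Python with pandas 2.3.3. Gene lists by function could not be applied without an annotation.

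The members, the rule and the tests were chosen with earlier results of these data known. Members are named by a rule: the 2 extremes in ratio, in RPKM at 10 months, in 5-against-2-month change among those called, in the range at 10 months, in length and in unique share, and those nearest the thresholds. Others are said to have been picked after their values were seen. The 8 abundant models are those whose share of the reads, averaged over the libraries, reached 1%.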

Additional observations from a re-analysis of the deposited data

How the results depend on the processing

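With all libraries, 3 members were called higher and 2 lower at 5 than at 2 months, 107 higher at 10 than at 2 months, 92 higher at 10 than at 5 months, and 198 models met the rule. In the same order, these were 10, 6, 175 and 151 without the low-count filter and 13, 6, 186 and 159 with DESeq2. Fits of only the harvests compared gave 0, 0, 8 and 197 (21 members at an unadjusted p under 0.05 for 5 against 2 months). With the replicate number as a block (replicate block) they were 0, 0, 27 and 44 (35 unadjusted). Deviations of same-numbered libraries correlated between −0.211 and 0.0461. These values show no pairing by number, but so few libraries cannot exclude it. Median-of-ratios factors left 0 lower calls from 2 to 5 months, and leaving out the 8 abundant models left 0 lower and 60 for 10 against 5 months. Leaving out 1 library at a time gave 0 to 62 higher and 0 to 8 lower at 5 months, 10 to 196 for 10 against 2 months, 0 to 196 for 10 against 5 months, and 222 to 335 models meeting the rule. Leaving out 2-month replicate 2 and 10-month replicate 3 together, chosen after seeing the data, gave 20, 22, 185 and 198 calls and 401 models. The rule gave 27 models with library totals (25 of them members), 84 with reads outside the 8 abundant models (all 84 members), 428 at a ratio of 1.5 and 66 at a ratio of 3. It gave 231 with TMM, 214 at a level of 50 and 178 at 200. For each of these shifts the cause was not tested. The 5 members called between 2 and 5 months kept their direction under all 15 alternatives and their call under 6 to 8. Counting error alone allows up to 10.2 scaled reads for a count of 0 in 2-month replicate 2. Levels below that are not resolved there. A 0 there also need not bound the 2-month level. In 10 members it stood where 2-month replicate 1 implied at least 30 reads.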

Other observations

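Some members stood next to each other in the numeric order of the protein identifiers. How many such pairs a random choice of 198 models would give was not computed. There were 4 adjacent pairs, 29819 with 29821, 335654 with 335656, 434165 with 434177, and 544341 with 544348, which hold 8 of the 198 members. The sources used here do not say whether identifiers follow position in the genome, so these pairs are given as a description of the identifiers only.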
